A study of Mus musculus with 3 samples.

Results

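Interferon response genes and the machinery that loads MHC class I molecules were followed in 2 stromal cell populations of mouse bone marrow. The list holds 53 genes named by symbol. Of these, 50 had a probe set annotated to that gene alone, among 19938 genes measured in the same way. Gbp2 and Isg15 share their probe set with another gene (Gbp2b and Gm9706), and no probe set was annotated to Ifi44 alone, so these 3 members are not analysed here. The members fall into 4 interferon receptor chains, 7 transcription factors, 4 nucleic acid sensors, 28 effectors and 7 genes of antigen processing.

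Interferons are secreted proteins that bind paired receptor chains on the cell surface and signal through JAK kinases to STAT and IRF transcription factors. These factors bind short DNA elements near interferon-stimulated genes, among them RNA sensors, enzymes that degrade or edit RNA, and proteins that block viral replication. The same signal raises genes that cut proteins into peptides and carry the peptides to MHC class I molecules. Stromal cells of the marrow carry both receptor types and share their tissue with blood cells that make and answer interferons.

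Each of 3 single-colour Affymetrix arrays carried amplified cDNA from sorted cells at baseline. There were 2 arrays of CXCL12-abundant reticular (CAR) cells, from 2 CXCL12-GFP knock-in mice, and 1 array of PDGFRa+ Sca+ CD45- lineage- cells (PaS), combined from 3 Prx1-Cre Rosa26Ai9/+ Cxcl12gfp/+ mice. All of these mice carried GFP at the Cxcl12 locus, and the PaS mice also carried Prx1-Cre, a driver of limb mesenchyme, and a Cre-dependent fluorescent reporter. The labels give no age, no treatment and, for the CAR mice, no zygosity of the knock-in. Genotype and cell type differ together between the groups and cannot be told apart. The PaS group has no replicate, so its array is assumed to vary like the CAR arrays.

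The genes that name the sorts check the labels, apart from Ly6a, which encodes the Sca-1 antigen and had no value here. Cxcl12, the CAR reporter's own gene, read 10.94 and 11.11 log2 intensity on the CAR arrays, against 7.76 on the array labelled PaS. Pdgfra, a gate of the PaS sort, read 7.52 and 7.97 on the CAR arrays and 4.33 on the array labelled PaS, and Ptprc, which encodes the CD45 antigen excluded from that sort, 5.11 and 5.01 against 8.27. Both run against the PaS label. Other genes of Sca-1+ progenitors and fibroblasts run with it. That list names 16 genes, of which Ly6a and Ly6c1 had no value. Of the 14 measured, 10 were lower in CAR cells and 1, Pdgfra, was higher. Dpt, which encodes the matrix protein dermatopontin, read 2.60 and 2.27 on the CAR arrays, against 8.10, and Thy1 3.56 and 3.69 against 7.67. Of 20 general blood cell genes, 15 were lower in CAR cells and 0 higher (limma, adjusted p under 0.05), and their summed intensity was 561 and 674 on the CAR arrays, against 3231 on the array labelled PaS. The part of blood cell RNA in the results below was not tested. In sorted bulk samples, fewer cells of a type and less RNA per cell cannot be told apart.

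The signal of dim genes also differed between arrays. Odorant and vomeronasal receptor genes, 1190 in all and not known to be used in marrow, had medians of 2.17 and 1.91 log2 units on the CAR arrays, against 2.83 on the array labelled PaS. The median difference of these odorant receptor genes, CAR minus PaS, was -0.70, against -0.10 over all genes and 0.37 over the 9969 brighter genes, those at or above the median level. The 95th percentile of the odorant receptor genes was 3.51 and 3.25 on the CAR arrays and 4.01 on the array labelled PaS. A value below it is called within the odorant receptor range here. Of the 50 members, 44 and 45 lay above that range on the CAR arrays and 37 on the array labelled PaS, and 34 did on all 3 arrays.

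More members were higher in CAR cells than lower. In a limma fit over all genes, 11 of the 50 rose in CAR cells and 3 fell (Benjamini-Hochberg adjusted p under 0.05), while 36 did not pass. Over all genes the same rule called 8.56% higher and 6.42% lower. Over the brighter genes, which include 43 members, it called 16.6% higher and 4.06% lower. The member counts are over all 50 members, so they are not on the same set as the brighter genes. Mx1 and Rsad2 lie below the median level. No test compared the member counts with a background. The median difference over the members was 0.76 log2 units. Both CAR arrays lay above the array labelled PaS for 35 members and below it for 11, and 4 members had the PaS value between them. Over all genes 37.4% lay above and 46.8% below, and over the brighter genes 58.9% and 25.8%. By size alone, 15 members were at least 2-fold higher on both CAR arrays and 5 at least 2-fold lower. These shares were 10.9% and 8.92% over all genes, and 20.9% and 5.33% over the brighter genes. The balance of calls depended on scaling, with 12 higher and 7 lower after quantile normalization, against 11 and 3 without it. Adding 16 to the intensities before the logarithm left 0 calls among all genes by limma, while 29 members had an unadjusted p under 0.05, against 30 without it.

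**Figure D1:**
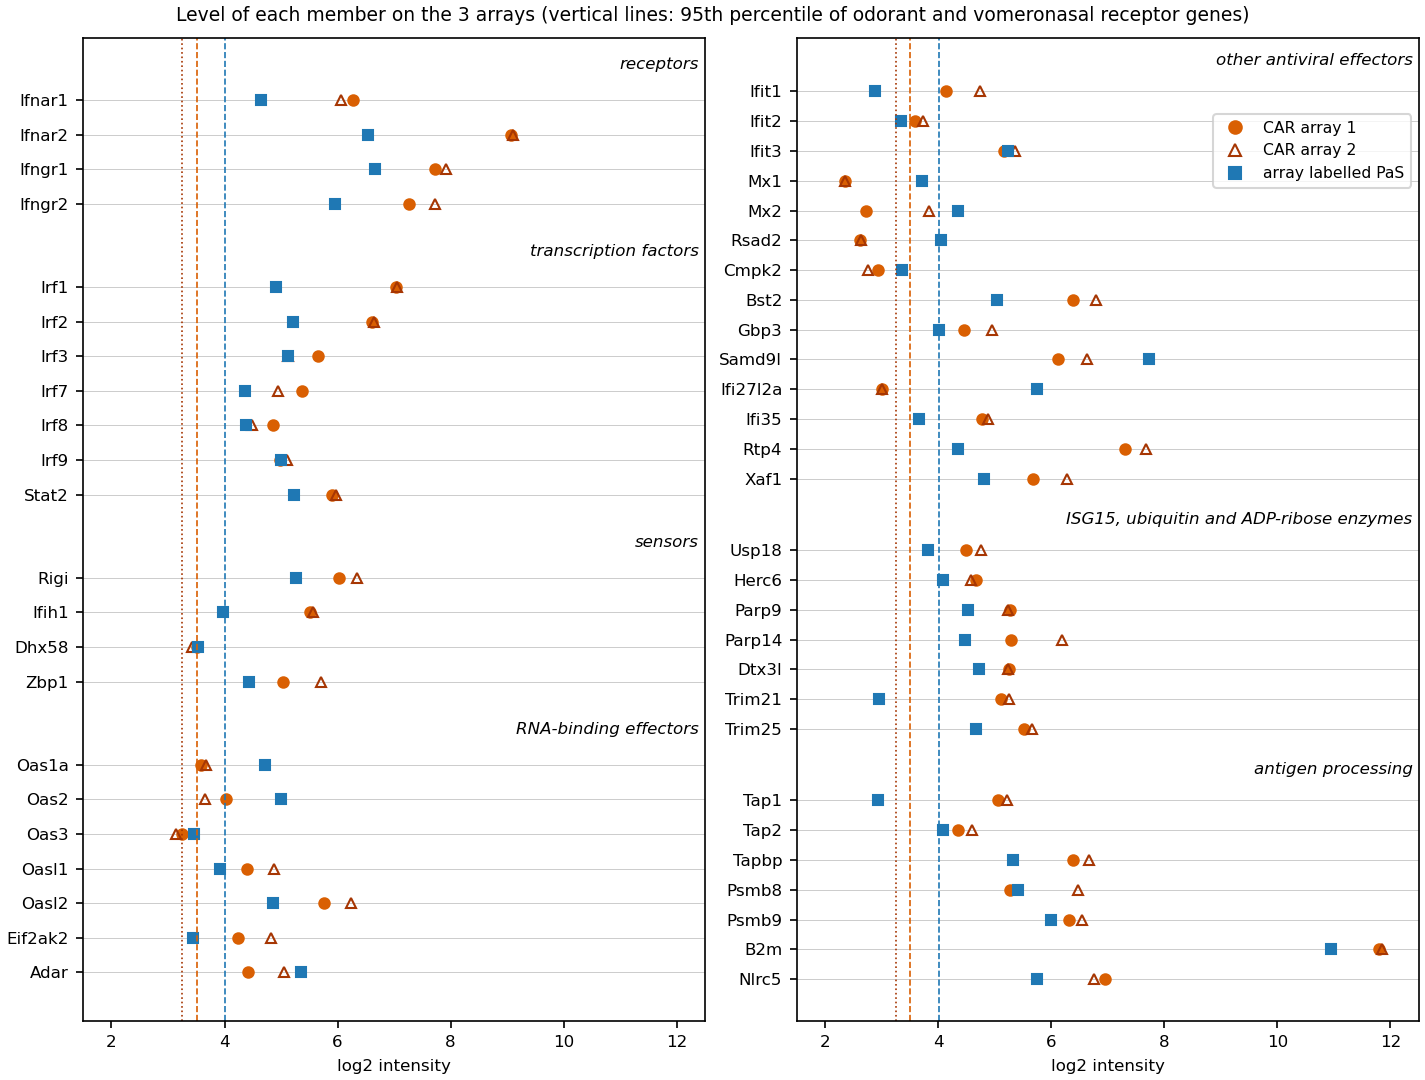
Log2 intensity (horizontal axis) of the 50 measured members, grouped by role, on CAR array 1 (filled circles), CAR array 2 (open triangles) and the array labelled PaS (squares). Vertical lines mark the 95th percentile of odorant and vomeronasal receptor genes on each array, at 3.51, 3.25 and 4.01. All 4 receptor chains lie to the right of the PaS squares on both CAR arrays, while Ifi27l2a lies far to the left of its square at 5.75.

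Of the 4 interferon receptor chains, 3 rose in CAR cells and 0 fell, where 16.6% of the brighter genes were called higher. Their median difference was 1.53 log2 units, or 0.96 after quantile normalization, against 0.37 over the brighter genes. Ifnar2, the type I receptor chain that docks STAT2, read 9.07 and 9.11 log2 units on the CAR arrays, against 6.53 on the array labelled PaS. The CAR arrays agreed within 0.04 and stood well clear of the other value, 5.88-fold apart (CAR minus PaS 2.55 ± 0.28 log2 units with SE, limma adjusted p = 0.014). Ifnar1, the partner chain that binds the kinase TYK2, read 6.27 and 6.07 on the CAR arrays, against 4.65, a 2.86-fold difference (adjusted p = 0.0341 in limma). For type II interferon, Ifngr2, the signalling chain that carries JAK2, read 7.26 and 7.72 against 5.95 and rose 2.92-fold (limma adjusted p = 0.0413). Ifngr1, the chain that binds interferon gamma, read 7.72 and 7.92 against 6.65. Its difference of 1.16 ± 0.29 did not pass (limma adjusted p = 0.0549), with a 95% interval of 0.43 to 1.90, but did after centring each array on its median, with a robust variance prior in limma and among the brighter genes alone. All 4 chains were above the odorant receptor range on each array.

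Among 7 transcription factors, 2 rose and 0 fell, where 16.6% of the brighter genes were called higher and 4.06% lower. Their median difference was 0.71, or 0.15 after quantile normalization. Irf1, which activates class I and guanylate-binding genes and is itself an early target of interferon gamma, read 7.03 and 7.05 on the CAR arrays, against 4.91. This 4.37-fold difference (limma adjusted p = 0.0188) is from the brighter of its 2 probe sets, and the mean of both gave 2.97 log2 units in place of 2.13. Irf2, a repressor that binds the same sites as IRF1, rose 2.69-fold (6.61 and 6.65 on the CAR arrays, against 5.21; limma adjusted p = 0.0358), and its adjusted p was 0.0524 after quantile normalization. Of the complex that answers type I interferon, Stat2 read 5.90 and 5.96 on the CAR arrays, against 5.22 (difference 0.71 ± 0.28, limma adjusted p = 0.143), and Irf9, its DNA-binding partner, 4.99 and 5.10 against 4.99. Irf7, the amplifier of interferon alpha production, read 5.37 and 4.95 on the CAR arrays, against 4.37 (limma adjusted p = 0.149). Irf3, its partner in inducing interferon beta, and Irf8, a factor of myeloid and B cells, differed by 0.26 and 0.28, both with 95% intervals that hold 0. Irf3, Irf8 and Irf9 changed sign after quantile normalization.

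Of the 4 sensors, Ifih1, which encodes the long double-stranded RNA sensor MDA5, rose 2.95-fold, at 5.51 and 5.57 on the CAR arrays against 3.98 (limma adjusted p = 0.0308). Its PaS value lay just inside the odorant receptor range. Rigi, the sensor of RNA with a 5′ triphosphate, read 6.02 and 6.34 on the CAR arrays, against 5.27 (difference 0.91 ± 0.30, limma adjusted p = 0.101). Zbp1, a sensor of left-handed nucleic acid, read 5.03 and 5.70 against 4.43 (limma adjusted p = 0.147). Both had their CAR arrays above the PaS value without passing. Dhx58, a regulator of the other RNA helicases, read 3.51 and 3.42 on the CAR arrays and 3.53 on the array labelled PaS, a difference of -0.06 with a 95% interval of -0.77 to 0.65.

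The effectors held the largest differences in both directions. Over the 28 measured effectors, 4 rose and 3 fell in CAR cells, and their differences ran from -2.74 to 3.13 log2 units. Of all genes 8.56% were called higher and 6.42% lower. Of the brighter genes, which include 22 of these effectors, 16.6% and 4.06% were. Rtp4, a chaperone of receptor trafficking that interferon induces, read 7.30 and 7.67 on the CAR arrays, against 4.35. It was 8.76-fold higher in CAR cells (difference 3.13 ± 0.31, limma adjusted p = 0.0125), the largest difference among the members. Bst2, the membrane tether that holds budding virions on the cell, read 6.38 and 6.79 on the CAR arrays, against 5.04, and rose 2.93-fold (limma adjusted p = 0.0391). Ifit1, which binds viral RNA that lacks a methylated cap, read 4.14 and 4.74 on the CAR arrays and 2.88 on the array labelled PaS, where it lay within the odorant receptor range. It rose 2.96-fold (limma adjusted p = 0.0474), and by 0.43 log2 units in place of 1.57 when all values under 4.01, the highest of the 3 odorant receptor range limits, were raised to it. Trim21, a cytosolic antibody receptor and ubiquitin ligase, read 5.11 and 5.26 on the CAR arrays, against 2.95, also within the odorant receptor range there. Its rise of 2.24 ± 0.28 log2 units (limma adjusted p = 0.018) was 1.17 with the same floor.

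Ifi27l2a, which encodes a small protein strongly induced by type I interferon, was the member that fell most. It read 3.004 and 3.012 on the CAR arrays, both within the odorant receptor range, and 5.75 on the array labelled PaS. The difference was -2.74 ± 0.28 (6.70-fold lower in CAR cells, limma adjusted p = 0.0129), or -1.74 with the floor at 4.01. Rsad2, which encodes viperin, an enzyme that makes a chain-terminating nucleotide, read 2.62 and 2.64 on the CAR arrays, against 4.04. Mx1, a GTPase that blocks influenza virus in the nucleus, read 2.34 and 2.35 against 3.72. These 2 also fell (differences of -1.42 and -1.37, limma adjusted p = 0.0362 and 0.0384), but all 3 values of Mx1 and both CAR values of Rsad2 lay within the odorant receptor range. With the floor their differences were -0.03 and 0, and the odorant receptor genes themselves had a median difference of -0.70.

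The remaining antiviral effectors had values on both sides and did not pass this test, although some passed under other settings. Samd9l, a restriction factor of poxviruses, read 6.12 and 6.63 on the CAR arrays and 7.72 on the array labelled PaS, well above the odorant receptor range on each array (difference -1.35 ± 0.34, limma adjusted p = 0.0569). Mx2 had unequal CAR arrays, at 2.71 and 3.84 against 4.35. Cmpk2, the nucleotide kinase encoded next to Rsad2, read 2.93 and 2.75 on the CAR arrays, against 3.36. On the other side Ifi35, a partner of the interferon-induced protein NMI, read 4.77 and 4.88 against 3.66 (limma adjusted p = 0.0522), and Xaf1, an antagonist of the apoptosis inhibitor XIAP, 5.67 and 6.28 against 4.81 (limma adjusted p = 0.0876). Samd9l and Ifi35 passed after centring, after quantile normalization, with the robust prior and among the brighter genes alone, and Xaf1 after centring. Ifit2, Ifit3 and Gbp3 differed by 0.32, 0.02 and 0.68, with intervals that hold 0, and Ifit3 changed sign after quantile normalization. Among the 7 enzymes of ISG15, ubiquitin and ADP-ribose transfer, both CAR arrays lay above the PaS value in each case, where 58.9% of the brighter genes did. Trim21 was the one past the test, and the rest differed by 0.52 (Dtx3l) to 1.27 (Parp14), with Usp18, the protease that removes ISG15, at 0.79, Trim25, the ligase that activates RIG-I, at 0.91, Herc6, the mouse ISG15 ligase, at 0.54, and Parp9, the partner of DTX3L, at 0.72.

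The RNA-binding effectors differed in sign within their own family. Of 7, 0 passed in either direction by limma, while 4 had an unadjusted p under 0.05, and their median difference was -0.26, or 0.049 among the 6 at or above the median level. Oas1a, an oligoadenylate synthetase that turns on RNase L, read 3.58 and 3.68 on the CAR arrays, against 4.72 (difference -1.09 ± 0.28, limma adjusted p = 0.0596). Oas2, a larger synthetase, read 4.02 and 3.65 on the CAR arrays, against 4.99 (difference -1.15 ± 0.31, limma adjusted p = 0.0654). Both passed after centring, after quantile normalization and with the robust prior. However, both CAR values of Oas1a and that of Oas2 on CAR array 2 lay under 4.01. The odorant receptor genes themselves had a median difference of -0.70. Oas3 lay within the odorant receptor range on all 3 arrays. The OAS-like genes ran the other way: Oasl2 read 5.76 and 6.23 on the CAR arrays, against 4.86 (difference 1.13 ± 0.33, limma adjusted p = 0.0775), and Oasl1, a repressor of Irf7 translation in mouse, 4.402 and 4.88 against 3.93. Eif2ak2, the kinase PKR that stops translation on double-stranded RNA, read 4.23 and 4.83 on the CAR arrays, against 3.44, and Adar, which edits adenosine in such RNA, 4.41 and 5.05 against 5.35. Oasl2 passed after centring, and Eif2ak2 and Adar after quantile normalization. Near-identical Oas1 copies lie beside Oas1a, and signal from them cannot be told apart from its own.

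**Figure D2:**
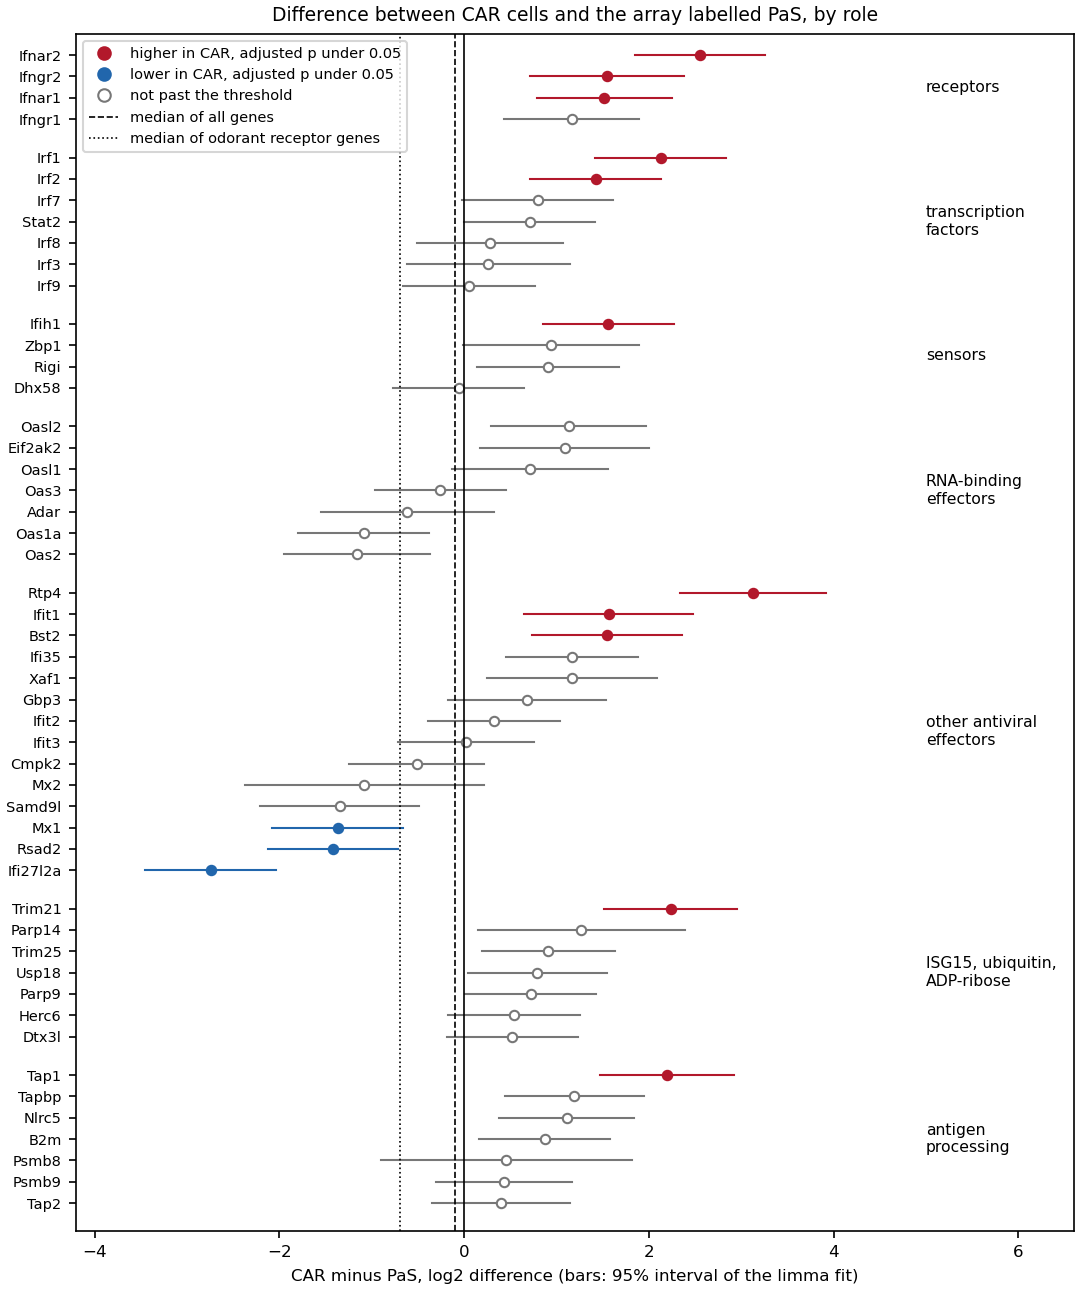
Log2 difference, CAR minus PaS, of each measured member with its 95% interval from the limma fit, by role and ordered by size. Red and blue points passed at adjusted p under 0.05, open points did not, and the dashed and dotted lines mark the medians of all genes (-0.10) and of odorant receptor genes (-0.70). Receptors and antigen processing lie to the right of 0 on this scale (Psmb8 and Psmb9 do not after quantile normalization), and the effectors range from Ifi27l2a at -2.74 to Rtp4 at 3.13.

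Of the 7 antigen processing genes 1 rose and 0 fell, where 16.6% of the brighter genes were called higher and 4.06% lower. All 7 differences were positive (Psmb8 and Psmb9 were negative after quantile normalization), and both CAR arrays lay above the PaS value for 6, where 58.9% of the brighter genes did. The median difference was 0.87, or 0.47 after quantile normalization, against 0.37 over the brighter genes. Tap1, a subunit of the peptide pump of the endoplasmic reticulum, read 5.05 and 5.22 on the CAR arrays, against 2.93. It rose 4.60-fold (difference 2.20 ± 0.29, limma adjusted p = 0.0186), with its PaS value within the odorant receptor range, or 1.12 log2 units with the floor. Tap2, the partner subunit of the pump, read 4.36 and 4.60 on the CAR arrays, against 4.08 (difference 0.40, 95% interval -0.34 to 1.14). Tapbp, which encodes tapasin, the bridge from the pump to class I molecules, read 6.39 and 6.66 against 5.33 (difference 1.19 ± 0.30, limma adjusted p = 0.0554), and passed after centring, with the robust prior and among the brighter genes alone. B2m, the light chain shared by class I molecules, was bright throughout, at 11.79 and 11.86 on the CAR arrays and 10.95 on the array labelled PaS (difference 0.87 ± 0.28, limma adjusted p = 0.0936). Nlrc5, the transactivator of class I genes, read 6.96 and 6.75 against 5.74 (limma adjusted p = 0.061), and passed after centring and with the robust prior. Its 19 probe sets gave differences from -0.51 to 2.06, of which 17 were positive and 2 negative.

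The immunoproteasome subunits showed small differences. Psmb9 read 6.32 and 6.53 on the CAR arrays, against 5.996 (difference 0.43, 95% interval -0.31 to 1.17). Psmb8 had the most unequal CAR arrays of the members, at 5.27 and 6.47 against 5.41, and the sign of its difference rests on CAR array 2. Psmb10, the remaining inducible catalytic subunit, differed by 0.70 ± 0.30 (limma adjusted p = 0.167). Of the constitutive counterparts, Psmb5 differed by 0.36 ± 0.36, Psmb6 by 1.26 ± 0.33 (limma adjusted p = 0.0628) and Psmb7 by 2.29 ± 0.30, which passed (limma adjusted p = 0.0191). Of these 6 catalytic subunits Psmb7 was the one that passed, and no test was made between the subunits of a pair.

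Promoter sequences of 5 members with a match are shown, to set response elements beside members that rose, fell or did not pass. Windows from RefSeq (build GRCm38.p6), 250 bases before to 50 after the annotated start, were found for 41 of the 53 members. The interferon-stimulated response element was searched on both strands as GAAA, any 2 bases and GAAA again, and the gamma-activated site as TTCNNNGAA, which reads the same on both strands; the motifs can overlap, as in Bst2. A gene with several windows was counted if any of them held a match. The first was found for 16 of the 41 members (39.0%), against 3.99% of 27025 genes with a window, and the second for 12 (29.3%), against 9.55%. The members were listed as interferon response genes, so these shares are no test of the list. Among members with a window, the first element was present in 5 of 10 called higher, in 1 of 1 called lower and in 8 of 27 that did not pass. The 150 bases before the start are given 5′ to 3′ on the gene's strand, with each match in capitals.
Irf1: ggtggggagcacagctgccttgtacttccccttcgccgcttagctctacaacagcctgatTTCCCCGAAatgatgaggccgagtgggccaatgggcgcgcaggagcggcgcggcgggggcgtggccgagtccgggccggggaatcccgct
Ifit1: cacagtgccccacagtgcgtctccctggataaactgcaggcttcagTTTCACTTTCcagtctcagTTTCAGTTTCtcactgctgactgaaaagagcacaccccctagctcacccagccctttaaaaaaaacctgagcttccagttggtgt
Bst2: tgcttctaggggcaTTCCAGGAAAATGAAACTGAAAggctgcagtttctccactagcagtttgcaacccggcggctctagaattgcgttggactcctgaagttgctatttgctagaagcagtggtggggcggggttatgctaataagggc
B2m: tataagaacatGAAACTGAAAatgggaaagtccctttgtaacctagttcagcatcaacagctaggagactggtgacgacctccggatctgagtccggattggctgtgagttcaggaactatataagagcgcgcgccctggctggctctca
Rsad2: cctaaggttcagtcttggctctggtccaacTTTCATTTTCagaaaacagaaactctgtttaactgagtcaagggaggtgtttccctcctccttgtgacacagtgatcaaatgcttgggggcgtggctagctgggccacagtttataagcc
Irf1 (chr11:53769864-53770013, plus strand) holds 1 gamma-activated site, 90 bases before the start. Ifit1 (chr19:34640739-34640888, plus strand) holds 2 response elements, 104 and 85 bases before it. In Bst2 (chr8:71537473-71537622, minus strand) a gamma-activated site 136 bases before the start runs into a pair of response elements at 130 and 124. B2m (chr2:122147537-122147686, plus strand) has its element at 139 bases and Rsad2 (chr12:26456453-26456602, minus strand) at 120 bases. A match describes these letters and shows no binding.

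Members that neighbour each other in the genome could be compared side by side. In the receptor run on chromosome 16, Ifnar2, Il10rb, Ifnar1 and Ifngr2 stand next to each other among protein-coding genes. All 4 were higher in CAR cells in the limma test, with differences from 1.42 to 2.55. Ifnar2, Ifnar1 and Ifngr2 are the receptor members given above, and whether the run changes together was not tested. Il10rb, a shared chain of the receptors for interleukin 10 and interferon lambda and not a member, read 5.58 and 6.03 on the CAR arrays, against 4.39 (difference 1.42 ± 0.33, limma adjusted p = 0.0475). On the other side, all 7 measured protein-coding genes of the Oas1a, Oas2 and Oas3 run on chromosome 5 had a negative difference, from -1.15 to -0.26, and 0 of them passed by limma (3 had an unadjusted p under 0.05). Oas1b, a transcribed pseudogene in the same run, read 3.10 and 3.30 on the CAR arrays, against 2.77 (difference 0.43, limma adjusted p = 0.339). These genes are dim, and the odorant receptor genes had a median of -0.70. The Oasl1 and Oasl2 pair, elsewhere on that chromosome, had positive differences of 0.71 and 1.13. In the Ifit run on chromosome 19 Ifit1 rose while Ifit2 and Ifit3 differed by 0.32 and 0.02. Of the neighbours Rsad2 and Cmpk2, Rsad2 fell and Cmpk2 differed by -0.51 (limma adjusted p = 0.262).

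The MHC run on chromosome 17 holds Psmb9, Tap1, Psmb8 and Tap2 in this order, with differences of 0.43, 2.20, 0.46 and 0.40. Psmb9 and Tap1 point away from each other and their starts are 225 bases apart, so the stretch below is upstream of both. It is shown on the plus strand (chr17:34187331-34187555), in the direction of Tap1. It held no match to either element, which says only that those letters are not in this window.
Tap1 and Psmb9: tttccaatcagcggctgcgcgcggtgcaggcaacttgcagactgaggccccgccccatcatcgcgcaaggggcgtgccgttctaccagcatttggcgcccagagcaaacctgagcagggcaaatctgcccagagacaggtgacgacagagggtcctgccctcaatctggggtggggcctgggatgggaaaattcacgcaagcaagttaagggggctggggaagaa
The CAR arrays were close for both genes, 0.17 apart for Tap1 and 0.22 for Psmb9. The difference between the genes was not tested.

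**Figure D3:**
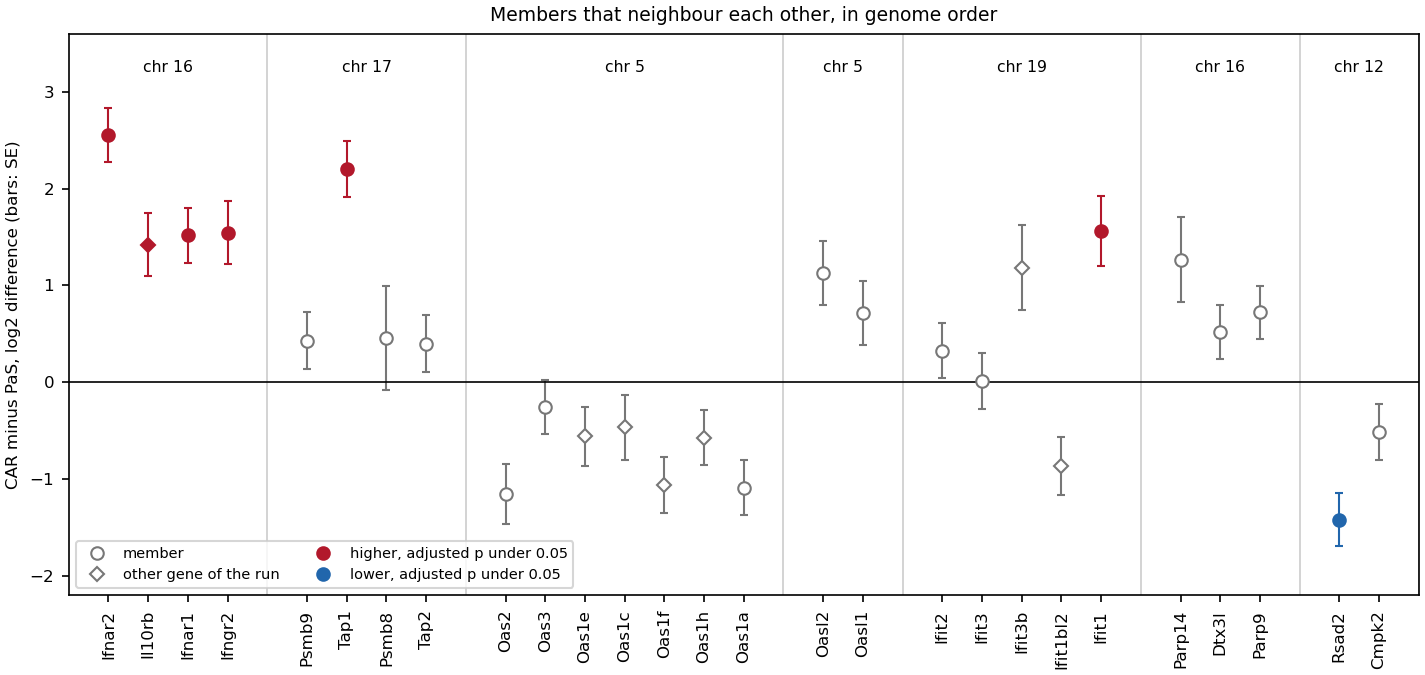
Log2 difference, CAR minus PaS, with its SE from the limma fit, for members that stand next to each other in the genome, in genome order within each run. Circles are members, diamonds are other protein-coding genes of the run, and filled red or blue points passed at adjusted p under 0.05. The receptor run on chromosome 16 lies between 1.42 and 2.55, the protein-coding Oas run on chromosome 5 between -1.15 and -0.26, and in the MHC run on chromosome 17 Tap1, at 2.20, stands above its neighbours.

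The CAR arrays differed a little over the members. CAR array 2 read higher than CAR array 1 for 38 of the 50 (76.0%), against 62.9% of those brighter genes. The median of CAR array 2 minus CAR array 1 was 0.14 log2 units in both sets. Over the 14 antiviral effectors outside the RNA-binding group, CAR array 2 was higher for 13. The widest gaps were those of Psmb8 (1.201), Mx2 (1.12), Parp14 (0.90), Zbp1 (0.67) and Adar (0.64). Leaving out either CAR array kept the direction of all 14 called members.

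Other genes of the pathway, 120 measured of 151 listed, gave 22 higher and 11 lower calls in CAR cells, with a median difference of 0.43. The same rule called 8.56% of all genes higher and 6.42% lower. Over the brighter genes, which include 94 of the 120, it called 16.6% and 4.06%. These counts were not tested against a background. Interferon genes themselves were dim: of 16 ligand genes, 6 and 7 lay above the odorant receptor range on the CAR arrays and 8 on the array labelled PaS. Both CAR arrays lay below the array labelled PaS for 11 of the 16 ligand genes and above it for 3. The same was seen for 989 of the 1190 odorant and vomeronasal receptor genes, and 66 of them lay above it. Ifna11 read 1.32 and 1.60 on the CAR arrays, against 4.32. Ifna16 read 2.77 and 3.65 against 5.38, and Ifna12 1.96 and 1.80 against 3.98, all 3 values within the odorant receptor range. With the floor at 4.01 the differences were -0.31 in place of -2.86 for Ifna11, -1.36 in place of -2.17 for Ifna16 and 0 in place of -2.09 for Ifna12. Interferon alpha genes are near-identical copies, so these values are uncertain as to the gene. Ifng, made by T and NK cells, read 2.82 and 2.62 on the CAR arrays, against 4.20 (difference -1.48, limma adjusted p = 0.0358), or -0.19 with the floor.

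Of 14 JAK-STAT genes and regulators, 4 rose and 1 fell, although their median difference was -0.33. The brighter genes, which include 13 of these 14, gave 16.6% higher and 4.06% lower. Socs3, an inhibitor of gp130 signalling, rose by 2.31 ± 0.28 log2 units (limma adjusted p = 0.0164). Jak1, the kinase common to both interferon receptors, read 7.90 and 8.18 on the CAR arrays, against 6.55 (limma adjusted p = 0.0372), and Pias1, a SUMO ligase, 6.05 and 5.75 against 4.39. Ptpn6, the phosphatase SHP-1 of blood cells, which also stands in the general blood cell list, fell by 1.90. Of 15 adaptors and other sensors, of which 11 are brighter genes, 3 rose and 2 fell, to be read beside the same shares. Tbk1, the kinase that activates IRF3, and Ticam1, the adaptor of TLR3, differed by 1.69 and 1.60, and Samhd1, which depletes nucleotides, by 1.37. The PaS value of Ticam1, 3.50, lay within the odorant receptor range. The DNA sensors Aim2 and Cgas fell by 1.998 and 1.47, with both CAR values of Cgas within the odorant receptor range and a difference of -0.23 with the floor.

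Among 42 other interferon-stimulated genes, 9 rose and 2 fell. The share of brighter genes called higher was 16.6% and lower 4.06%, to be read beside each list in this paragraph. The chemokine genes Cxcl9 and Cxcl10, whose products draw T cells, read 8.48 and 8.85 on the CAR arrays, against 5.21, and 7.71 and 7.78 against 5.06. Their differences of 3.46 and 2.68 passed (limma adjusted p = 0.0114 and 0.0129). Lgals3bp, a secreted glycoprotein, rose by 2.93. In the other direction Slfn1, a gene of lymphocytes and myeloid cells, read 4.83 and 4.41 on the CAR arrays and 7.86 on the array labelled PaS (difference -3.24 ± 0.32, limma adjusted p = 0.0125). Of 10 class I heavy chains and relatives that could be named, 2 rose: Cd1d1, which presents lipids, by 2.05 (1.22 with the floor, its PaS value of 3.18 being within the odorant receptor range), and Hfe, a regulator of iron uptake, by 2.53 with unequal CAR arrays at 5.24 and 6.31 against 3.24. The PaS value of Hfe also lay within the odorant receptor range. H2-K1, H2-D1 and H2-T23 are not analysed here. Of 9 other class I processing genes, Pdia3, a disulfide isomerase of the loading complex, rose by 1.90 and Erap1, which trims peptides, by 1.26. The PaS value of Erap1, 3.88, lay within the odorant receptor range. Among 14 constitutive proteasome genes, Psmb7 differed by 2.29, Psmb2 by 1.54 and Psmb3 by -1.88. The PaS value of Psmb7, 3.64, lay within the odorant receptor range.

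**Figure D4:**
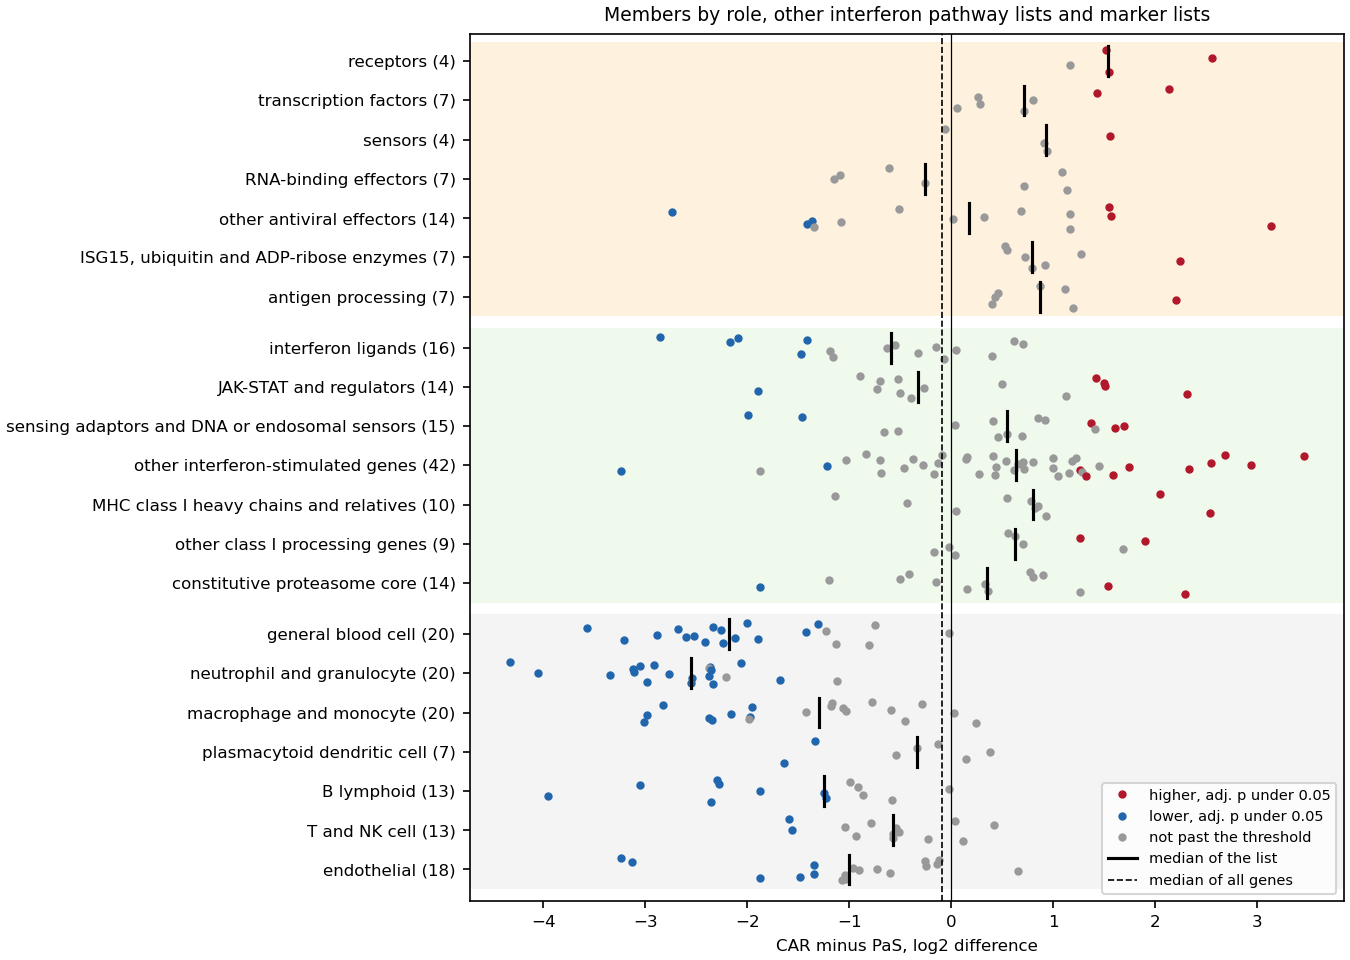
Log2 difference, CAR minus PaS (horizontal axis), of each gene in the 7 member groups (top), 7 other lists of the pathway (middle) and 7 lists of blood and endothelial markers (bottom), with the number of genes in brackets. Black bars are list medians and the dashed line is the median of all genes, -0.10. Receptors have a median of 1.53 and antigen processing 0.87, while the general blood cell list has -2.18 and the neutrophil list -2.55.

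Markers of cells that answer interferon strongly were set beside these values. Of 20 macrophage and monocyte genes, 8 were lower in CAR cells and 0 higher, and their summed intensity was 901 and 864 on the CAR arrays, against 4150. Of 20 neutrophil genes 17 were lower, with sums of 3647 and 3375 against 19926. Plasmacytoid dendritic cells are the main source of interferon alpha, and 7 of their genes were measured. Siglech read 3.30 and 3.22 on the CAR arrays, against 4.901, and Ccr9 2.21 and 2.01 against 3.45, within the odorant receptor range on all 3 arrays. The median difference of the 7 was -0.33, and Cox6a2 and Pacsin1 were positive, at 0.38 and 0.14. Of 13 T and NK cell genes, 2 were lower and 8 lay within the odorant receptor range on all 3 arrays. Cd3e and Zap70 of this list were positive on both CAR arrays, at 0.42 and 0.11. Of 18 endothelial genes, 6 were lower, with Cdh5 at 2.91 and 3.18 against 6.28. Both CAR arrays lay below the array labelled PaS for 11 members and above it for 35. The 11 were Ifi27l2a, Mx1, Rsad2, Oas1a, Oas2, Oas3, Samd9l, Adar, Mx2, Cmpk2 and Dhx58. The medians of these marker lists are all negative, so any lower member shares their sign. A shared sign therefore cannot tell from which cells the signal of a member came. Odorant receptor genes had the sign of the markers too, with a median of -0.70, and Mx1 and Rsad2 differed by 0 and -0.03 with the floor. The part of such cells in the member values was not tested.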

How the data were processed

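The authors deposited a linear intensity for each probe set and array. Affymetrix Expression Console and RMA, which corrects background, normalizes probes between arrays and summarises them, are named in the submitters' processing notes. The deposited values still differed in spread between arrays, with the narrowest interquartile range on the array labelled PaS. Their versions and the build were not given in the sources used here. Log2 of the deposited intensity was taken with no pseudocount. Of 35556 probe sets, 21789 carried 1 gene symbol, 1621 several and 12146 none; 21698 matched the current gene table. A gene was represented by the brightest of its probe sets by mean log2 on the 3 arrays, giving 19938 genes.

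Samples were grouped by their labels; p-values measure only the spread between the 2 CAR arrays, each from 1 mouse. limma 3.58.1 (R 4.3.3) gave CAR minus PaS for each gene (lmFit, eBayes, two-sided, Benjamini-Hochberg over all genes, threshold 0.05). The fit has 1 residual degree of freedom and 4.20 prior ones around a prior SD of 0.25 log2 units. SE and 95% intervals are limma's moderated ones. The fit was tested on simulated data. No detection calls were used, and the number of arrays limits the precision. No column was left without a sample.

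The text names all members, up to 4 genes with the largest called difference in each other pathway list, the catalytic proteasome genes, the genes of the sorts and up to 3 genes of a marker list; Il10rb, Samhd1 and Oas1b were named after their values were seen. Members and lists were chosen with earlier results of these data known.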

Additional observations from a re-analysis of the deposited data

How the results depend on the processing

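Alternatives were centring each array, quantile normalization, testing only genes at or above the median level, a pseudocount of 16, averaging a gene's probe sets, an intensity trend or a robust prior in eBayes, leaving out each CAR array, and, chosen after seeing the data, raising values under 4.01 log2 units to that level. Members higher in CAR numbered 11, against 17 after centring and 0 with the pseudocount; members lower numbered 3, against 6 after centring, 7 after quantile normalization, 0 with the pseudocount and 6 with the robust prior. All genes called were 1706 higher and 1281 lower, against 2636 and 2831 after quantile normalization, 510 lower at or above the median level, and 0 in both directions with the pseudocount, where the lowest adjusted p was 0.0539 and 5785 genes had an unadjusted p under 0.05. The cause was not tested. Pathway genes gave 22 higher and 11 lower, against 25 lower after quantile normalization and 0 and 0 with the pseudocount.

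Members at least 2-fold higher in both CAR arrays numbered 15 (10.9% of all genes), against 8 after quantile normalization and 9 with the pseudocount; those at least 2-fold lower numbered 5 (8.92% of all genes), against 3 at or above the median level, 1 with the pseudocount and 2 with the raised floor. With 1 CAR array left out they numbered 16 to 22 higher and 6 lower. The median difference of the members, 0.76, was 0.46 after quantile normalization and 0.49 with the pseudocount, and 0.67 to 0.93 with 1 CAR array left out. Apart from the pseudocount, under which all 14 called members lost the call with their direction kept, the calls held in the other 6 tested settings, except Irf2 after quantile normalization; Mx1 and Rsad2 were below the level filter. Signs changed after quantile normalization for Dhx58 (0.10), Ifit3 (-0.52), Irf3 (-0.26), Irf8 (-0.039), Irf9 (-0.45), Psmb5 (-0.28), Psmb8 (-0.13) and Psmb9 (-0.21), each uncalled, and the median of the RNA-binding effectors was 0.049 at or above the median level. No paired analysis was possible because the groups share fewer than 2 replicate numbers. Signal near that of odorant receptor genes limits what dim members can show.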
